A study of Mus musculus with 6 samples.

Results

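The genes described here are 8 determinants of the embryonic left-right axis, namely Nodal, Gdf1, Cfc1, Lefty1, Lefty2, Dand5, Invs and Pkd1l1. They were chosen by gene symbol for their known role, at a time when earlier results of these data were known. All 8 of the 8 were found among the 18746 genes (20414 rows) of the authors' deposited table. Each had 1 row there. RNA came from the entorhinal cortex (EC) of the left or the right hemisphere, the gateway between neocortex and hippocampus. Both groups were dissected from untreated wild-type C57BL/6 mice aged 6 months, and each was run on 3 Affymetrix Mouse Gene 2.0 ST arrays that the titles call biological replicates, so that 6 arrays were compared. Whether the left and right tissue of one mouse was used is not stated.

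In the mouse embryo, cilia of the node drive a leftward fluid flow, and cells at the edge of the node sense it through their own cilia. Sensing lowers the secreted antagonist Dand5 on the left side, which releases the ligand Nodal there. Nodal, acting with its partner ligand Gdf1 and the co-receptor Cfc1 (Cryptic), switches on its own gene and the inhibitor Lefty2 in the left lateral plate, while the inhibitor Lefty1 is made at the midline. Mutation of Invs, encoding the cilium protein inversin, reverses the body axis in mice, and Pkd1l1 encodes a polycystin of the flow-sensing complex. The comparison of left with right EC asks, for these genes, whether the adult cortex carries a side difference in the transcripts that set sidedness in the embryo.

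RefSeq promoters, covering 250 bases before to 50 bases after a transcript start in the GRCm38.p6 build, were given for 6 of the 8 genes, in 7 windows. Lefty1 and Lefty2 were not matched. The windows of Invs, Gdf1, Nodal and Dand5 are shown because they span the range of CpG content among these genes and include Invs, the gene of the 8 with the smallest p-value. Capitals mark each CpG dinucleotide. The Gdf1 window is that of its upstream start.
Invs, chr4:48279510-48279809, plus strand: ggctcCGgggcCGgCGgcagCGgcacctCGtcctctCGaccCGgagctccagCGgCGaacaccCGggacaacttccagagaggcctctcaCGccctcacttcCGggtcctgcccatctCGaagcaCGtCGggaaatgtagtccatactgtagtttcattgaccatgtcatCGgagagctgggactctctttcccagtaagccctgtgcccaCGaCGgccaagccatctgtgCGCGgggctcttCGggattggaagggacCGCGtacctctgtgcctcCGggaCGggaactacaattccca
Gdf1, chr8:70315525-70315824, plus strand: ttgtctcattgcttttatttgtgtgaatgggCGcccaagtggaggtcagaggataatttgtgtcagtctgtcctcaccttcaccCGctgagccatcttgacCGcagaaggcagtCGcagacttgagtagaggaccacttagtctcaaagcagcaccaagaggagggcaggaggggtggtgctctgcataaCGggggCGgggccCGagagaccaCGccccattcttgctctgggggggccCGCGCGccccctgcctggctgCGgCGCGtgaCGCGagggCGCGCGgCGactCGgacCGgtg
Nodal, chr10:61417722-61418021, plus strand: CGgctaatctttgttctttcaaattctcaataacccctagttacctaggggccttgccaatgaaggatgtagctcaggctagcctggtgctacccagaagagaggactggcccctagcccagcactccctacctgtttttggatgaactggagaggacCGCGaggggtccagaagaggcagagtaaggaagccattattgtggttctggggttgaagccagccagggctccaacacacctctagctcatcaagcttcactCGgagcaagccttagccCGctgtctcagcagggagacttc
Dand5, chr8:84822774-84823073, minus strand: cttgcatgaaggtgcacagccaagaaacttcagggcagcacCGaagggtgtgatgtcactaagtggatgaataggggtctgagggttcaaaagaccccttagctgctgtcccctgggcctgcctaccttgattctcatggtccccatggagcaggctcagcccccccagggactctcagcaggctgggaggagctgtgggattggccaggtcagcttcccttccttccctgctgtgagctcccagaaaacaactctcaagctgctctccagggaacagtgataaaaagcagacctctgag
The Invs window held 25 CpG dinucleotides and the upstream Gdf1 window 22, more than in 81.6% and 76.9% of the 32841 promoter windows of that length. Nodal had 5, Pkd1l1 6, the downstream Gdf1 window 8, Cfc1 2 and Dand5 1, where the median of all windows was 7. CpG-rich promoters are common at genes that are used in many tissues. The windows were also searched on both strands for the FOXH1 motif AATNCACA, through which Nodal signalling acts on its targets, for the SMAD palindrome GTCTAGAC and for the core GTTGCC bound by the RFX factors of cilium genes. No motif contains another as spelled, and none of these letter strings was found in the 7 windows. Of all windows, 3.6% held the FOXH1 motif, 0.213% the SMAD palindrome and 12.5% the RFX core.

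The named genes carry a signed fold and a p-value for left against right, and no value per array, since the rows of the per-array table are not paired with genes in the sources used here. No SD or replicate mean can therefore be given for a gene, and the level of a marker could not be used to check the tissue label. A row for a gene does not show that its transcript is expressed in EC. Whether the named genes, Nodal and the other embryonic genes among them, gave signal above background was not tested. Their folds, and the words higher in left or right EC, thus describe array signal only. A positive fold was taken to mean more signal in left EC. This coding is likely, since left versus right stands in the heading of the authors' deposited table. That table held 9 rows over 2-fold on the negative side and 0 on the positive side, and in the per-array values 9 rows with a mean above the median signal were over 1 log2 unit higher in right EC and 0 in left EC.

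None of the 8 genes passed the test for a difference between left and right EC after adjustment over all rows, and the folds were small. In bulk tissue such a fold cannot separate a different number of cells from a different amount of RNA per cell. Of the 8, 6 were higher in left EC and 2 in right EC in the authors' deposited table, with a median log2 fold of 0.04. Over all rows, 54.1% were higher in left EC in the authors' deposited table, with a median of 0.01. The median size of the difference was 1.043-fold for the 8 genes and 1.036-fold for all rows in the authors' deposited table. A deposited p under 0.05 was found for 1 of the 8 genes (12.5%), where 8.13% of all rows of the authors' deposited table had one. After Benjamini-Hochberg adjustment over the rows of the authors' deposited table, 0 of 20414 passed 0.05 (0.0%), the smallest adjusted p being 0.554, while 1660 rows had an unadjusted p under 0.05.

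**Figure D1:**
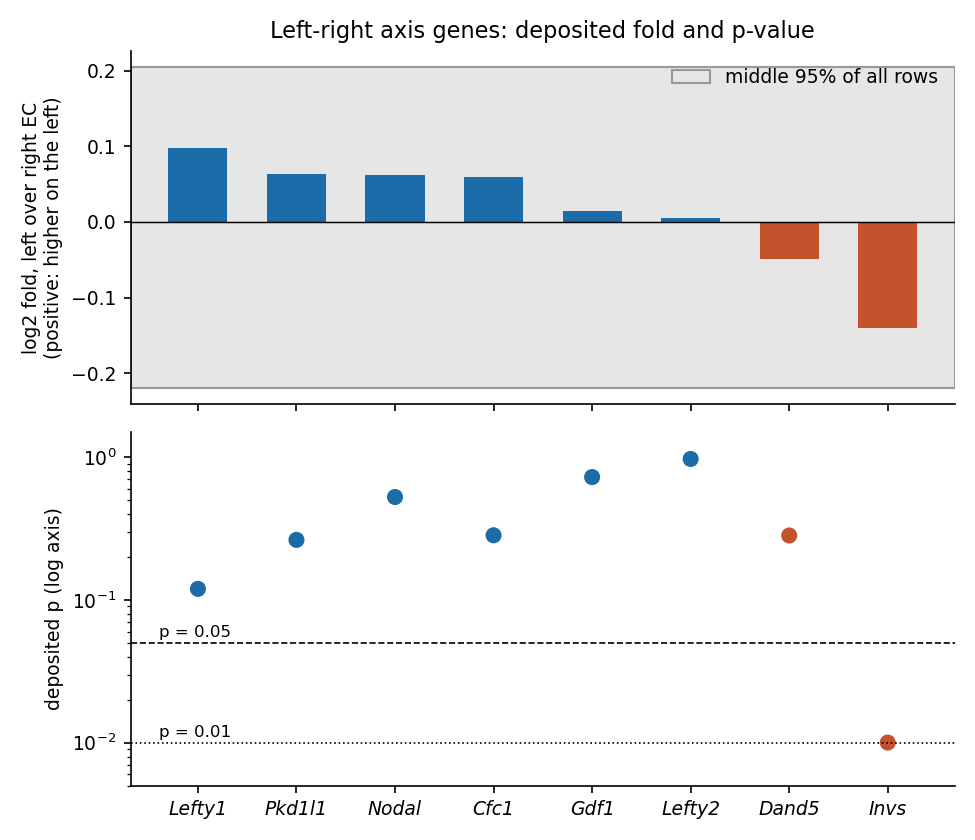
Deposited log2 fold of left over right EC (upper panel, bars from 0, grey band the middle 95% of all rows, -0.22 to 0.21) and deposited p (lower panel, log axis) for the 8 left-right axis genes, blue where higher in left EC and red where higher in right EC. All 8 bars lie inside the band, and Invs is the only gene of the 8 with a p below the dashed line at 0.05, sitting on the dotted line at 0.01.

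The ligands Nodal and Gdf1 and the co-receptor Cfc1 all had small folds towards left EC. Nodal, the secreted signal of the TGF-beta family that marks the left side of the embryo, was 1.044-fold higher in left than in right EC in the authors' deposited table (deposited p = 0.526). Pkd1l1, the flow sensor gene, had a fold of the same size, 1.044, with a deposited p of 0.263 in the authors' deposited table. Nodal's p was thus large for its fold, since 88.0% of the 482 rows within 0.002 log2 units of that fold size had a smaller p in the authors' deposited table. Cfc1, encoding an EGF-CFC protein that lets Nodal engage its receptors, was 1.042-fold higher in left EC by the authors' deposited table (deposited p = 0.284). Gdf1, which pairs with Nodal as a heterodimer, was 1.010-fold higher in left EC by the authors' deposited table (deposited p = 0.725). In the mouse nervous system Gdf1 is known from a transcript that it shares with the ceramide synthase gene Cers1, and the RefSeq gene table gives both genes the same start. Whether the Gdf1 row also reads that shared transcript was not tested, and Cers1 was not analysed here.

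Of the inhibitors among the 8 genes, Lefty1 and Lefty2 were higher in left EC and Dand5 in right EC, with no p under 0.05. Lefty1, which guards the midline of the embryo, was 1.070-fold higher in left EC by the authors' deposited table (deposited p = 0.12). Lefty2, induced by Nodal in the left lateral plate, had the smallest difference of the 8 genes, 1.004-fold, in the authors' deposited table (deposited p = 0.971). The Lefty genes lie close together on chromosome 1, and their proteins are closely related, so shared probe signal is possible and was not tested. Dand5, the antagonist that is low on the left of the node, was 1.035-fold higher in right EC by the authors' deposited table (deposited p = 0.283). Of all rows in the authors' deposited table, 51.7% lay at least as far from equality as Dand5 and 25.5% at least as far as Lefty1.

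Invs had the largest difference and the smallest p of the 8 genes. It was 1.103-fold higher in right EC than in left EC in the authors' deposited table, a log2 fold of -0.14 (deposited p = 0.01), and its p adjusted by Benjamini-Hochberg over all rows was 0.567. Of all rows in the authors' deposited table, 3.81% were higher in left EC with a p under 0.05 and 4.33% higher in right EC. Invs ranked 339 of the 20414 rows by deposited p in the authors' deposited table. Its p of 0.010022506 was the first past 0.01, since the 338 rows ahead of it (1.66%) are those under that limit. By size it stood lower, at rank 2765, and 13.5% of rows were at least as far from equality in the authors' deposited table. Among the 150 rows within 0.002 log2 units of its fold size the median deposited p was 0.0921 and 1.33% had a smaller p than Invs in the authors' deposited table. The cut-off table that the authors deposited, with 6 genes at a p under 0.01 and folds of 1.505 or more, held 0 of the 8 genes.

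Pkd1l1, the other cilium-linked gene, pointed the opposite way and was higher in left EC, with a log2 fold of 0.06 in the authors' deposited table (deposited p = 0.263). Whether the folds of Invs and Pkd1l1 differ from each other was not tested, as no value per array can be had for either.

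**Figure D2:**
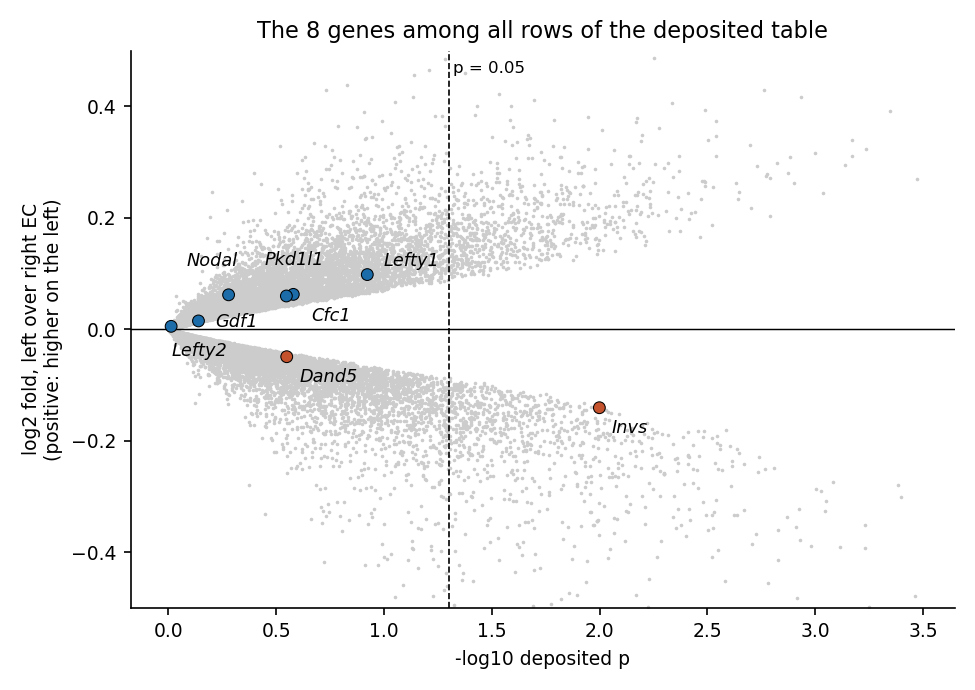
Log2 fold of left over right EC (vertical axis) against -log10 of the deposited p (horizontal axis), grey points for the rows of the deposited table within 0.5 log2 units of 0 (73 rows lie outside) and coloured points for the 8 left-right axis genes. Invs, at a log2 fold of -0.14, lies near the inner edge of the cloud, and the other 7 genes lie left of the dashed threshold line.

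In order from left-higher to right-higher the genes ran Lefty1, Pkd1l1, Nodal, Cfc1, Gdf1, Lefty2, Dand5 and Invs. Pkd1l1, Nodal and Cfc1 lay within 1.042 to 1.044-fold in the authors' deposited table, and without values per array the order of neighbours could not be set against a spread per gene. The spread of the arrays puts these sizes in context, although it was measured on rows without names and on a table that the authors may have processed otherwise than their folds. In the limma fit to 41345 rows of log2 signal, the 95% interval of a left minus right difference reached a median of 0.18 log2 units, or 1.133-fold, to either side of the difference. This margin had a median of 0.25 in the dimmest 25% of rows and 0.12 in the brightest 25%. The sizes of Nodal, Gdf1, Cfc1, Lefty2, Dand5 and Pkd1l1, at most 0.06, were under the margin of each of the 41345 rows. Lefty1, at 0.10, exceeded the margin of 2.14% of rows, and Invs, at 0.14, that of 31.3%. Differences of the size of Nodal's or Dand5's could thus not be resolved by 3 arrays a side, and they are not shown to be absent. At an adjusted p under 0.05 limma called 0 of the 41345 rows (0.0%), and 3023 rows (7.31%) had an unadjusted limma p under 0.05.

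**Figure D3:**
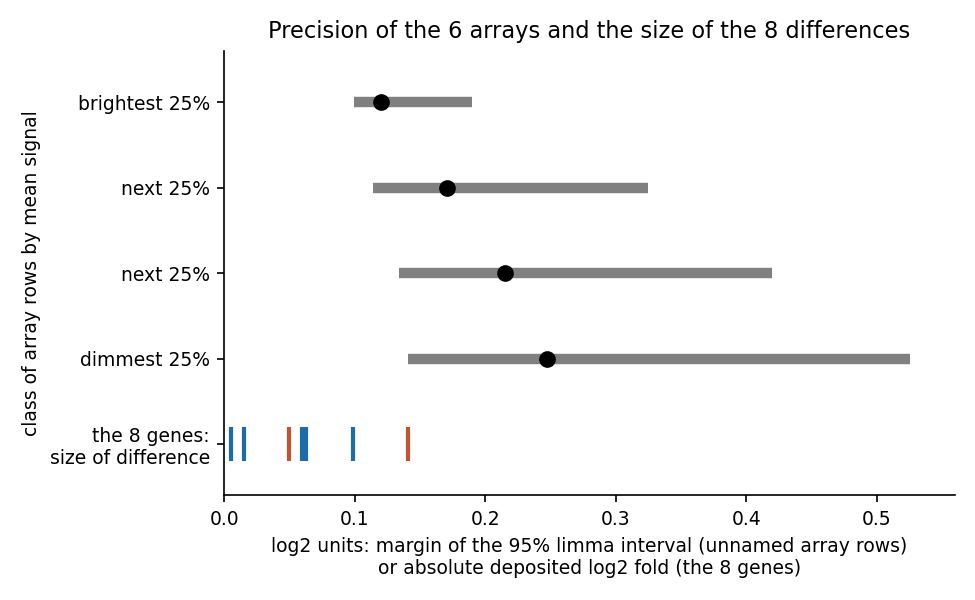
Margin of the 95% limma interval of left minus right EC to either side, in log2 units, for the unnamed array rows in 4 classes of 25% by mean signal (dot, median, and bar, 10th to 90th percentile), above the absolute deposited log2 fold of the 8 genes (ticks, blue where higher in left EC, red where higher in right EC). Only the Invs tick at 0.14 passes the median of 0.12 of the brightest class, and the other 7 ticks lie below every bar.

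The rest of the pathway was described from gene lists arranged by role. Of 82 listed genes other than the 8, 64 were measured, and they divided into 29 higher in left EC and 35 in right EC in the authors' deposited table. Their median log2 fold was 0.00, against 0.01 for all 18746 genes, and 7 of the 64 (10.9%) had a p under 0.05, where 7.87% of all genes of the authors' deposited table had one. Of these, 1 was higher in left EC and 6 in right EC, against 3.77% and 4.1% of all genes in the authors' deposited table. No gene of the lists passed adjustment over all genes. A p for a gene with several rows comes from the mean of its rows, which concerns 3 of the 64 and none of those named below.

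Among the ligands and co-receptors, Tdgf1 (Cripto), the close relative of Cfc1, was 1.11-fold higher in right EC by the authors' deposited table (deposited p = 0.0762), opposite to Cfc1. Of the 4 measured receptors, Acvr2b, the type II activin receptor whose loss disturbs laterality in mice, was 1.06-fold higher in left EC and Tgfbr1, the type I TGF-beta receptor, 1.10-fold higher in right EC by the authors' deposited table (deposited p = 0.105 and 0.0616). Of the listed intracellular mediators, Smad2 and Smad4 were not found in the authors' deposited table. The 7 measured mediators had a median log2 fold of 0.00 there and none had a p under 0.05. Within them Skil, encoding a repressor of SMAD signalling, was 1.06-fold higher in left EC (p = 0.0625) and its relative Ski 1.02-fold higher in right EC (p = 0.435) by the authors' deposited table. Cer1, a secreted antagonist related to Dand5, was the one gene outside the 8 that was higher in left EC with a p under 0.05, at 1.13-fold in the authors' deposited table (deposited p = 0.0224). Cer1 and Dand5 thus pointed to opposite sides. Among the 8 measured transcription factor genes, 5 were higher in left EC and 3 in right EC in the authors' deposited table. Snai1, expressed on the right side of the embryo, was 1.10-fold higher in left EC by the authors' deposited table (deposited p = 0.0512).

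Genes for partners of inversin in its compartment of the cilium had smaller folds than Invs, a contrast that was not tested. Nek8 and Anks6, which bind one another there and were named after their values were seen, had log2 folds of -0.01 and 0.01 in the authors' deposited table (deposited p = 0.856 and 0.903). Over the 10 measured genes of the inversin and sensor list, 3 were higher in left EC and 7 in right EC, with a median log2 fold of -0.05, and the p was under 0.05 for 2 (20.0%), Invs among them, against 7.87% of all genes in the authors' deposited table. Pkd2, the calcium channel partner of Pkd1l1, also named after its value was seen, was 1.05-fold higher in right EC by the authors' deposited table (deposited p = 0.148).

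Of 14 measured genes for building and moving node cilia, 5 were higher in left EC and 9 in right EC, and 4 (28.6%) had a p under 0.05, all higher in right EC, where 4.1% of all genes in the authors' deposited table were higher in right EC with such a p. By the authors' deposited table they were the dynein genes Dnahc11 (1.15-fold, p = 0.0462), Dnaic1 (1.13-fold, p = 0.0317) and Dnaic2 (1.14-fold, p = 0.0096), and Ccdc40, needed to assemble motile axonemes (1.11-fold, p = 0.0146). Dnahc11 is the gene of the left-right dynein that turns the node cilia. Ift172, a gene of intraflagellar transport, was 1.05-fold higher in left EC by the authors' deposited table (deposited p = 0.121). The list median was a log2 fold of -0.03. Motile cilia are also borne by ependyma, and the choroid plexus is likewise ciliated. Of 9 measured choroid plexus and ependyma genes 9 were higher in right EC, between 1.08-fold and 5.59-fold, with 6 (66.7%) at a p under 0.05, against 7.87% of all genes in the authors' deposited table. Of 8 measured ependymal motile cilium genes, 7 were higher in right EC and 3 (37.5%) had a p under 0.05, also against 7.87%. The 8 log2 folds ran from -0.28 to 0.00 in the authors' deposited table. These 8 genes include 4 of the 14, and Dnahc11 and Ccdc40 are among the 3, so the counts of the cilium lists are not independent. Ccdc153 is in both the ependymal motile cilium list and the choroid plexus and ependyma list. Of 9 measured entorhinal and cortical neuron markers, 7 were higher in left EC, with a median log2 fold of 0.07, and of 8 meninges and fibroblast genes 6, with a median of 0.20, where 54.0% of all genes of the authors' deposited table were higher in left EC. Of the 8 meninges and fibroblast genes 1 (12.5%) had a p under 0.05, higher in left EC, against 7.87% of all genes. Of the 9 neuron markers 3 (33.3%) had one, also against 7.87%, with 2 higher in left EC and 1 in right EC. Those higher in left EC were Lamp5 and Tbr1, each 1.13-fold in the authors' deposited table (deposited p = 0.0191 and 0.0346). The one higher in right EC was Foxp2, a deep-layer transcription factor gene with the smallest p of the 9, at 1.26-fold in the authors' deposited table (deposited p = 0.0074). The part of these tissues in the folds of Invs and the cilium genes was not tested.

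**Figure D4:**
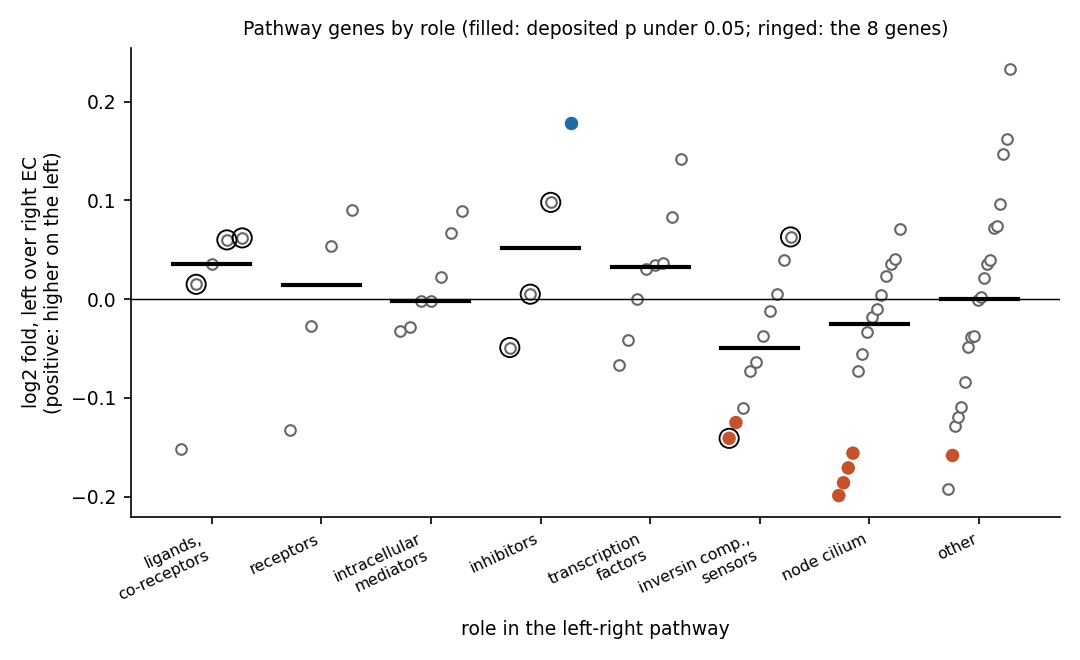
Log2 fold of left over right EC for measured left-right pathway genes, grouped by role, with open circles for a p of 0.05 or more, filled circles for a p under 0.05 (blue, higher in left EC, red, higher in right EC), rings around the 8 genes and a black line at each list's median. The medians run from -0.05 for the inversin and sensor list to 0.05 for the inhibitors, and 4 of the filled circles belong to the node cilium list.

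The remaining list of 20 measured genes, from Hedgehog, BMP, Notch, planar polarity and ligand processing, divided into 10 higher in left EC and 10 in right EC, with a median log2 fold of 0.00 in the authors' deposited table. Of the 20, 1 (5.0%) had a p under 0.05, against 7.87% of all genes. It was Pcsk6, a convertase that cleaves the Nodal and Lefty precursors, 1.12-fold higher in right EC by the authors' deposited table (deposited p = 0.0333). Furin, a convertase with overlapping substrates, named after its value was seen, had a log2 fold of 0.00 in the authors' deposited table (deposited p = 0.97). Chrd, encoding the BMP antagonist chordin, had the smallest p of those higher in left EC, at 1.12-fold in the authors' deposited table (deposited p = 0.0674).

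The folds were set beside those of the 10 flanking measured genes, 5 on each side in chromosome order, to see whether a gene moved with its surroundings. The 10 neighbours of Invs on chromosome 4 had log2 folds of -0.04 to 0.13 in the authors' deposited table, all above the -0.14 of Invs. Of the 10, 0 had a p under 0.05, where 7.87% of all genes had one. The adjacent gene Tex10 had a log2 fold of 0.00 and the nearby Erp44, named after its value was seen, one of 0.06 in the authors' deposited table (deposited p = 0.971 and 0.184). Lefty1, at 0.10, also lay outside the range of its 10 neighbours, -0.04 to 0.05, which included Lefty2, in the authors' deposited table. Nodal, Gdf1, Cfc1, Lefty2, Dand5 and Pkd1l1 lay within the range of their neighbours. Neighbours with a p under 0.05 in the authors' deposited table numbered 2 of 10 for Gdf1, 1 of 10 for Dand5 and for Pkd1l1, and 0 of 10 for the other genes. With a share of 7.87% over all genes, counts this small among 10 neighbours cannot tell whether a gene moved with its surroundings. The ranges cannot tell it either. Over all rows, 6.49% had a lower log2 fold than Invs and 86.1% a lower one than Lefty1. Most genes from anywhere would therefore also lie above Invs and below Lefty1.

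**Figure D5:**
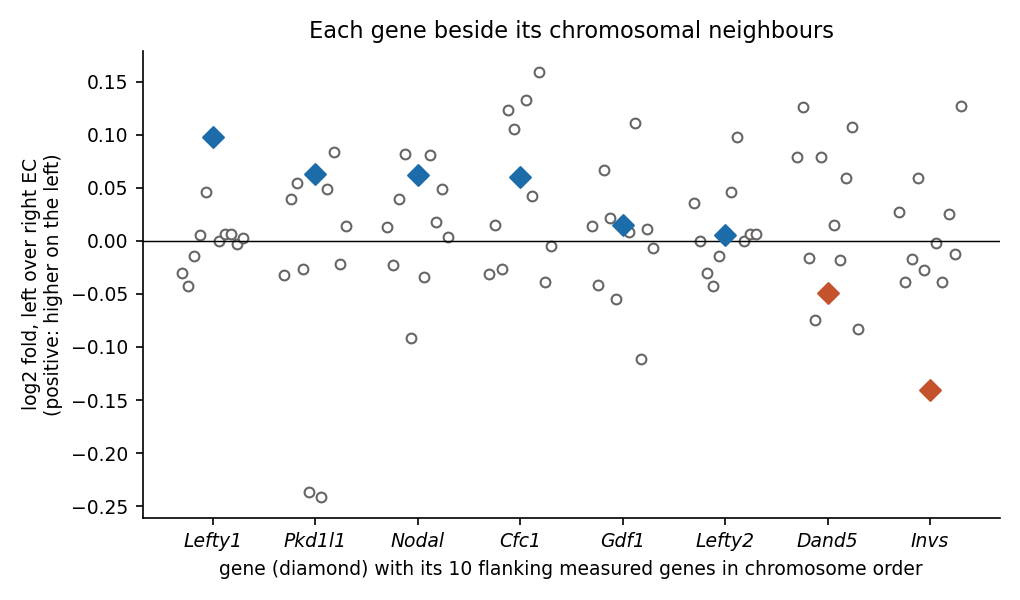
Log2 fold of left over right EC for each of the 8 genes (diamonds, blue where higher in left EC, red where higher in right EC) with its 10 flanking measured genes in chromosome order (open circles). Invs lies below all 10 of its neighbours and Lefty1 above all 10 of its own.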

How the data were processed

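Left and right EC were profiled on 3 Affymetrix Mouse Gene 2.0 ST arrays each, per the labels' protocols, and groups come from the sample titles. For every gene the authors deposited a p-value and a fold, a signed score that is never between -1 and 1, which was turned into a log2 fold, left over right. Per the series' design text the analysis used Ingenuity iReport; the test behind those p-values, the normalization and the genome build are not given in the sources used. The authors also deposited a table of log2 signal for 41345 rows and 6 arrays (array medians 7.24 to 7.28, pairwise correlations 0.995 to 0.996); its scale was inferred from the values, and its rows have no gene names here. So the planned limma values per gene could not be had, and no gene could be named for a pattern like a member's.

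The unnamed rows were fitted by lmFit and eBayes of limma 3.58.1 (R 4.3.3, two-sided, with a single term for side) and adjusted by Benjamini-Hochberg at 0.05; the code was tested on simulated data. Genes with several rows were given the mean log2 fold and the p of the mean signed z. List symbols were matched by Entrez identifier through RefSeq GRCm38.p6. The members and lists were chosen with earlier results of these data known. Genes were named by rule: the 8 members, and in each list the genes with p under 0.05 and the smallest p in each direction; others are marked where they appear, and some genes that the rule names are not reported here. Replicate numbers were not taken as pairs: same-numbered deviations correlated at 0.15, 0.01 and 0.13, and the other combinations at -0.15 to 0.02, which does not settle whether they share a mouse. The limma p-values set each left minus right difference against the spread between these samples, and the number of arrays limits the precision. What spread the deposited p-values rest on is not known, as their test is not given. Listed genes not found in the table were not analysed here.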

Additional observations from a re-analysis of the deposited data

How the results depend on the processing

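Adjusted limma calls among the unnamed rows numbered 0 in each alternative run, and the smallest adjusted p ranged from 0.252 to 0.719. The unadjusted count of 3023 became 1808 with the fit limited to the brighter rows, above the median, which tests fewer rows, and 2104 to 3829 when 1 array was left out. With the replicate number as a block it was 2790, with 0 adjusted calls; whether same-numbered arrays share a mouse is not stated, and not every array correlated best with its own number. Among the 8 genes, the count with a deposited p under 0.05 was 1, and it was 0 at a deposited p under 0.01 and 0 after Benjamini-Hochberg adjustment over all rows, both alternatives chosen after seeing the data. Each of the 8 has 1 row, so averaging rows changed nothing. Among the 64 other pathway genes the count was 7, and it was 1 (Dnaic2) at a p under 0.01 and 7 with the first row of each gene. The alternatives that need named values per array (normalization, filters on signal, array weights, left-out arrays and the block for single genes, and limma in place of the deposited fold) were not run for named genes, so no deposited fold could be checked against a left-out array.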

Other observations

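Among the flanking genes of all 8 genes, the pair on either side of Pkd1l1 held the largest folds. Tns3, encoding the focal adhesion protein tensin 3, and Gm11992 were each 1.18-fold higher in right EC by the authors' deposited table (deposited p = 0.0279 and 0.0554), whereas Pkd1l1 between them was 1.04-fold higher in left EC. These were singled out after their values were seen.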
